A study of Mus musculus with 14 samples.

Results

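The muscle nicotinic acetylcholine receptor and its partners at the synapse are described here through 7 genes: the receptor subunit genes *Chrna1*, *Chrnb1*, *Chrnd* and *Chrng*, and the synapse genes *Musk*, *Rapsn* and *Dok7*. They were found by symbol among the 23284 gene symbols counted in mouse forelimb buds, and all 7 were present. *Chrna1* was selected on its read counts in these samples, which were much more abundant in *Smad4* mutant limb buds than in wild-type ones. The question was whether the other muscle receptor genes follow it. Its level in mutants is therefore given as a description, without a test, and only the other 6 genes were tested between genotypes.

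The receptor of embryonic skeletal muscle is a ligand-gated cation channel built from α, β, γ and δ subunits, which *Chrna1*, *Chrnb1*, *Chrng* and *Chrnd* encode, and the γ subunit is later replaced by ε (*Chrne*). At the forming neuromuscular synapse, agrin from the motor neuron binds LRP4, which activates the receptor tyrosine kinase MuSK. The adaptor DOK7 binds MuSK inside the muscle fibre and helps to activate it, and rapsyn (*Rapsn*) ties the receptors into clusters. In limb buds of this age, muscle precursors have migrated in from the somites, and the mesenchyme around them comes from the lateral plate. SMAD4 is the shared partner of the SMAD proteins that carry BMP and TGFβ signals.

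RNA was sequenced from 14 samples, each the 2 forelimb buds of 1 NMRI embryo. Wild-type (WT, n = 3) and *Smad4* Δ/Δc (n = 4) embryos were collected at 30 somites (E10.0) and 35 somites (E10.5). Per the labels, all 4 groups carry the transgene PrxCreT/+. The WT embryos are *Smad4* +/+ PrxCreT/+, and the mutants combine 1 constitutively inactive *Smad4* allele (Δ) with 1 allele that Cre inactivates (Δc). The Cre transgene is driven by *Prrx1* regulatory sequence, which acts in the limb bud mesenchyme and not in limb ectoderm, so that the ectoderm of the mutants keeps 1 active *Smad4* allele. Whether the muscle precursors from the somites lost *Smad4* was not measured here. *Smad4* itself gave 152 to 169 counts scaled to library size by edgeR's TMM method (CPM) in WT embryos at E10.0 and 163 to 167 at E10.5, against 36.9 to 46.0 and 32.9 to 40.7 in the mutants. All 6 limb mesenchyme markers examined, such as *Prrx1*, passed the filter on low counts. Libraries held 34066930 to 61691258 reads on genes. Replicates 4 and 5 of the mutants stood apart at both stages: the ribosomal precursor *Rn45s* took 1.72% to 8.05% of their reads, against 0.151% to 0.478% in the 10 other libraries, and they had the lowest depth within each mutant group. Results are therefore also given without these 4 libraries, and the part of *Rn45s* and depth in the results was not tested.

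The 7 genes covered a wide range of abundance, from 5 reads of *Musk* in all 14 embryos together to 3856 reads of *Chrna1*. A gene entered the main test when it reached 1 CPM in at least 3 embryos, and 2 of the 7 did: *Chrna1* in all 14 embryos and *Chrnb1* in exactly 3. No embryo reached 1 CPM for the other 5. Per kb of merged exon, WT embryos at E10.0 gave 0.403 ± 0.0785 CPM for *Chrna1* (mean ± SD, n = 3) and 0.159 ± 0.0506 for *Chrnb1*. The levels per kb of *Rapsn* (0.0451 ± 0.0313), *Chrng* (0.0250 ± 0.0166) and *Chrnd* (0.0218 ± 0.00651) lay within their spread of each other. *Dok7* (0.00491 ± 0.00523) and *Musk* (no read in 3 embryos) were lowest. In mutants at E10.5 *Chrna1* stood at 2.29 ± 0.279 CPM per kb (n = 4) and *Chrnb1* at 0.491 ± 0.133, while *Chrng* stood at 0.0192 ± 0.0171.

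The promoters of 3 of the subunit genes are shown because their transcripts took different courses, as the values below describe. The RefSeq promoter table (GRCm38.p6) held an entry for 5 of the 7 genes, *Chrna1*, *Chrnb1*, *Chrng*, *Musk* and *Dok7*. Each line gives the 250 bases before the annotated start, read 5′ to 3′ on the strand of the gene. Each run matched mm9 exactly and once, at chr2:73418396-73418645 on the minus strand for *Chrna1*, at chr11:69609440-69609689 on the minus strand for *Chrnb1* and at chr1:89102136-89102385 on the plus strand for *Chrng*. Capitals mark E-boxes (CANNTG, which reads alike on both strands), the core motif of basic helix-loop-helix factors such as the myogenic regulators.
Chrna1: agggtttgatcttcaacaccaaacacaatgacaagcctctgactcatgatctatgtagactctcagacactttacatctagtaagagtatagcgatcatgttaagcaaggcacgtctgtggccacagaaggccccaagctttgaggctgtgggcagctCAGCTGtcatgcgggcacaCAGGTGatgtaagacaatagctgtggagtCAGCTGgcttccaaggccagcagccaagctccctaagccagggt
Chrnb1: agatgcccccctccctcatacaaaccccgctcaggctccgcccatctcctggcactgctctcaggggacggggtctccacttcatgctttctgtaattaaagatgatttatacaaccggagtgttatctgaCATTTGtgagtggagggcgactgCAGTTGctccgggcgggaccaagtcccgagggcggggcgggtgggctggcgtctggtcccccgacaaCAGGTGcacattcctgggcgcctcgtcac
Chrng: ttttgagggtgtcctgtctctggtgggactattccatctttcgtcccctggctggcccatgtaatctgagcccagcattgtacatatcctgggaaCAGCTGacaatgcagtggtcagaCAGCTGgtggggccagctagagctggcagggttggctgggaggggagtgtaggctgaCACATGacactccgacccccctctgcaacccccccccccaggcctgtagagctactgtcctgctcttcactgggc
All 3 windows held 3 E-boxes. The form CAGCTG, itself one of the E-boxes, occurred in *Chrna1* at 92 and 44 bases before the start and in *Chrng* at 155 and 132 bases before it, and not in the *Chrnb1* window. Of the windows not shown, that of *Musk* held 3 E-boxes, 1 of them CAGCTG. The 2 entries of *Dok7* held 1 and 0 E-boxes and no CAGCTG. Of 32851 promoters of the same length, 66.2% held an E-box of any form and 12.2% held at least as many E-boxes as *Chrna1*. CAGCTG occurred in 13% of them, and 1.26% held at least as many CAGCTG as *Chrna1*. These matches describe the letters of the windows and not a site that was shown to be bound.

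*Chrna1* (mm9, chr2:73401272-73418395, minus strand) was far more abundant in mutants at both stages. At E10.0 the 3 WT embryos gave 1.72, 1.45 and 2.14 CPM, and the mutant replicates 1, 3, 4 and 5 gave 9.42, 4.95, 7.84 and 8.14 CPM. At E10.5 the WT embryos gave 2.55, 2.87 and 3.39 CPM, and the mutant replicates 1, 2, 4 and 5 gave 10.4, 9.35, 8.80 and 11.6 CPM. Every mutant lay above every WT embryo of either stage. The log2 fold change of mutants over WT was 2.10 (SE 0.209) at E10.0 and 1.77 (SE 0.202) at E10.5, and without mutant replicates 4 and 5 it was 2.04 and 1.76. Since whole limb buds were sequenced, more cells of a type and more RNA per cell cannot be told apart here or in the other comparisons.

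*Chrna1* was picked between genotypes and not between stages, and its stage comparisons were tested. They use the same embryos whose values picked it, so these tests are not independent of that choice. This limit also holds wherever *Chrna1* is counted between stages below. In WT embryos it rose from 1.77 ± 0.345 CPM at E10.0 to 2.94 ± 0.427 at E10.5, a log2 fold change of 0.73 (SE 0.229, edgeR exact test, Benjamini-Hochberg adjusted *P* = 0.0278), and the groups did not overlap. This call was lost without WT replicate 2 of E10.0 (adjusted *P* = 0.249 in edgeR) or without WT replicate 3 of E10.5 (adjusted *P* = 0.224). In mutants the means were 7.59 ± 1.89 and 10 ± 1.22 CPM, a log2 fold change of 0.40 (SE 0.179) that missed the threshold of 0.1 (edgeR adjusted *P* = 0.104), and 2 of the 4 mutants at E10.5 lay above all mutants at E10.0. It was called in DESeq2 (adjusted *P* = 0.0947), and in edgeR without mutant replicate 1 of E10.0 (adjusted *P* = 0.0284), WT replicate 3 of E10.0 (0.0994) or mutant replicate 4 of E10.5 (0.0897). On the log2 scale the genotype effect of E10.5 minus that of E10.0 came to -0.33, which is given without a test.

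**Figure D1:**
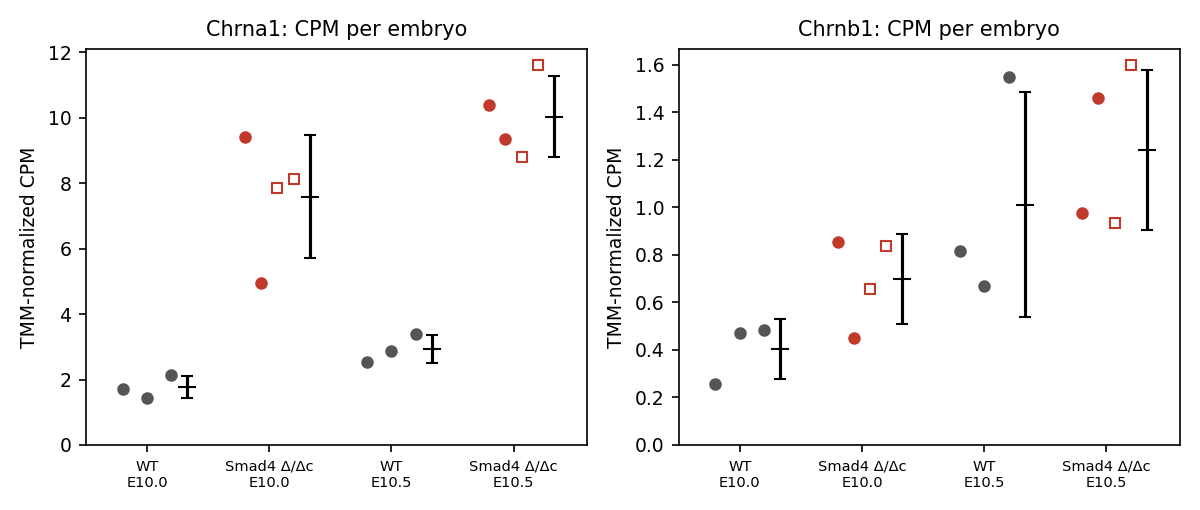
TMM-normalized CPM of *Chrna1* and *Chrnb1* (vertical axes) in each embryo by group (horizontal axes). Grey points are WT, red points are *Smad4* Δ/Δc, open squares are mutant replicates 4 and 5, and black bars are mean ± SD. *Chrna1* runs from 1.45 to 3.39 CPM in WT and from 4.95 to 11.6 CPM in mutants, whereas the genotypes overlap for *Chrnb1* at both stages.

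*Chrnb1* (mm9, chr11:69597538-69609445, minus strand), which encodes the β subunit, went up between the stages in both genotypes and was not called between genotypes. At E10.0 it gave 0.256, 0.470 and 0.484 CPM in WT embryos and 0.855, 0.450, 0.656 and 0.836 CPM in mutants. At E10.5 it gave 0.817, 0.668 and 1.55 CPM in WT embryos and 0.978, 1.46, 0.934 and 1.60 CPM in mutants. Mutants of E10.0 lay above the WT range in 3 of 4 cases, and those of E10.5 in 1 of 4.

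The log2 fold change of *Chrnb1* between genotypes was 0.80 (SE 0.358) at E10.0, with an unadjusted *P* of 0.0291 and an adjusted *P* of 0.212 in edgeR's exact test, and 0.29 (SE 0.319) at E10.5, with an adjusted *P* of 0.910 and an interval of 2 SE from -0.35 to 0.93. Thus 0 of the 1 testable gene other than *Chrna1* was called at either stage, against 6.61% of the 12393 genes tested at E10.0 and against 3.73% for E10.5. The quasi-likelihood test and DESeq2 also called it at neither stage. The effect of genotype at E10.5 minus that at E10.0 came to -0.51 on the log2 scale (quasi-likelihood adjusted *P* = 0.957), and 0.186% of all genes were called for such a difference.

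Between the stages, *Chrnb1* rose by a log2 fold change of 1.33 (SE 0.371) in WT (edgeR adjusted *P* = 0.0100) and of 0.83 (SE 0.303) in mutants (adjusted *P* = 0.0387), and the stages did not overlap in either genotype. Counting *Chrna1*, 2 of the 2 testable genes rose in WT and 1 of 2 in mutants, against 10.1% and 19.2% of all genes called in either direction. The 3 embryos that carried *Chrnb1* over the filter were all of E10.5, so the filter itself favoured a stage difference. In a fit with no filter its edgeR adjusted *P* was 0.0154 in WT and 0.0669 in mutants. Without mutant replicate 3 of E10.0 the call in mutants was lost (adjusted *P* = 0.175), and without mutant replicates 4 and 5 the gene no longer passed the filter.

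The δ and γ subunit genes are neighbours on chromosome 1, *Chrnd* at chr1:89087227-89096644 and *Chrng* at chr1:89102386-89108410 (mm9, both plus strand), 5741 bp apart. Neither passed the filter. They were compared by an exact two-sided permutation test of the mean CPM, and, as an alternative chosen after seeing the data, in an edgeR fit with no filter over 18612 genes. The permutation test cannot give a *P* under 0.0286 for 3 against 4 embryos or under 0.1 for 3 against 3. At so few reads, counting error alone is large, and 3 reads correspond to 0.0513 to 0.0977 CPM depending on the library.

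*Chrng* was high in WT at E10.5, and low in WT at E10.0 and in mutants at E10.5, whose ranges overlapped. At E10.0 the WT embryos held 1, 4 and 2 reads (0.0183, 0.0818 and 0.0440 CPM), and the mutants held 7, 4, 4 and 13 reads (0.120, 0.0692, 0.109 and 0.320 CPM). At E10.5 the WT embryos held 19, 10 and 23 reads (0.457, 0.196 and 0.503 CPM), and the mutants held 4, 1, 2 and 0 reads (0.0711, 0.0195, 0.0566 and 0 CPM). The genotypes overlapped at E10.0, and at E10.5 every mutant lay below every WT embryo.

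At E10.5 the mean of *Chrng* was 0.0368 ± 0.0328 CPM in mutants and 0.385 ± 0.165 in WT, and the exact permutation *P* was 0.0286, the smallest that this design can give. The fit with no filter gave a log2 fold change of -3.18 (SE 0.720, edgeR adjusted *P* = 0.000258), so that *Chrng* fell where *Chrna1* stood higher. Leaving out each embryo in turn kept this call in 14 of 14 fits, with log2 fold changes of -3.75 to -2.90, and without mutant replicates 4 and 5 the value was -2.98 (edgeR adjusted *P* = 0.00330). In the same fit the value at E10.0 was 1.63 (SE 0.742, edgeR adjusted *P* = 0.304), which was not called, and the exact permutation *P* there was 0.143.

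*Chrng* also changed between the stages, in opposite directions in the 2 genotypes. In WT it rose by a log2 fold change of 2.96 (SE 0.735, edgeR adjusted *P* = 0.00169 with no filter), and in mutants it fell by 1.86 on the log2 scale (SE 0.726, adjusted *P* = 0.0594). The fall in mutants was lost without mutant replicates 4 and 5 (-1.01, edgeR adjusted *P* = 0.657), without replicate 5 of E10.0 alone (adjusted *P* = 0.301), and without replicate 2 or 5 of E10.5 (adjusted *P* = 0.169 and 0.171). The exact permutation *P* of this fall was 0.0571, and that of the rise in WT was 0.1, the smallest that 3 against 3 can give. The genotype effects at the 2 stages differed by -4.81 on the log2 scale (quasi-likelihood adjusted *P* = 0.0718), a call that held in 4 of the 14 fits that left out 1 embryo, those without mutant replicate 1 or 3 of E10.0, mutant replicate 1 of E10.5 or WT replicate 2 of E10.5. It was also called in DESeq2 with no filter (-4.98, adjusted *P* = 0.0110). Without mutant replicates 4 and 5 that difference was -3.96 (quasi-likelihood adjusted *P* = 0.418).

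*Chrnd* gave another picture, with mutants above WT at E10.0 and no separation at E10.5. At E10.0 the WT embryos held 4, 4 and 2 reads (0.0731, 0.0818 and 0.0440 CPM), and the mutants held 11, 7, 10 and 5 reads (0.188, 0.121, 0.273 and 0.123 CPM). At E10.5 the WT embryos held 5, 7 and 13 reads (0.120, 0.137 and 0.284 CPM), and the mutants held 15, 7, 9 and 3 reads (0.267, 0.137, 0.255 and 0.0977 CPM). All 4 mutants of E10.0 lay above the 3 WT embryos, but the exact permutation *P* was 0.0857 and the fit with no filter gave a log2 fold change of 1.35 (SE 0.595, edgeR adjusted *P* = 0.205). At E10.5 that fit gave 0.10 (SE 0.480, edgeR adjusted *P* = 1), and the interval of 2 SE on either side ran from -0.86 to 1.06.

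Among the synapse partners, *Rapsn* (mm9, chr2:90875777-90885886, plus strand), which encodes the receptor-clustering protein, held 1 to 10 reads per embryo. At E10.0 its mean was 0.0813 ± 0.0565 CPM in WT and 0.140 ± 0.0334 in mutants (exact permutation *P* = 0.143). At E10.5 it was 0.178 ± 0.0689 in WT and 0.0998 ± 0.0744 in mutants (exact permutation *P* = 0.171). Its direction between genotypes thus differed between the stages, as for *Chrng*, but neither value passed a test. The annotation places a lincRNA, *Gm13778*, on the opposite strand over 4 exonic bases of *Rapsn*, and counting without strand could not separate the reads of these bases.

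*Dok7* (mm9, chr5:35399462-35430488, plus strand) held 0 to 5 reads per embryo and *Musk* (mm9, chr4:58298834-58390290, plus strand) 0 to 2. *Dok7* gave 3, 6, 8 and 6 reads in all in WT and mutants of E10.0 and WT and mutants of E10.5, with exact permutation *P* values of 0.629 and 0.543 between genotypes. *Musk* gave 0, 1, 3 and 1 reads in the same order, in 4 of the 14 embryos. Differences of either gene were not detectable at this depth, since 13 of 14 embryos for *Dok7* and all 14 for *Musk* held 3 reads or fewer.

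**Figure D2:**
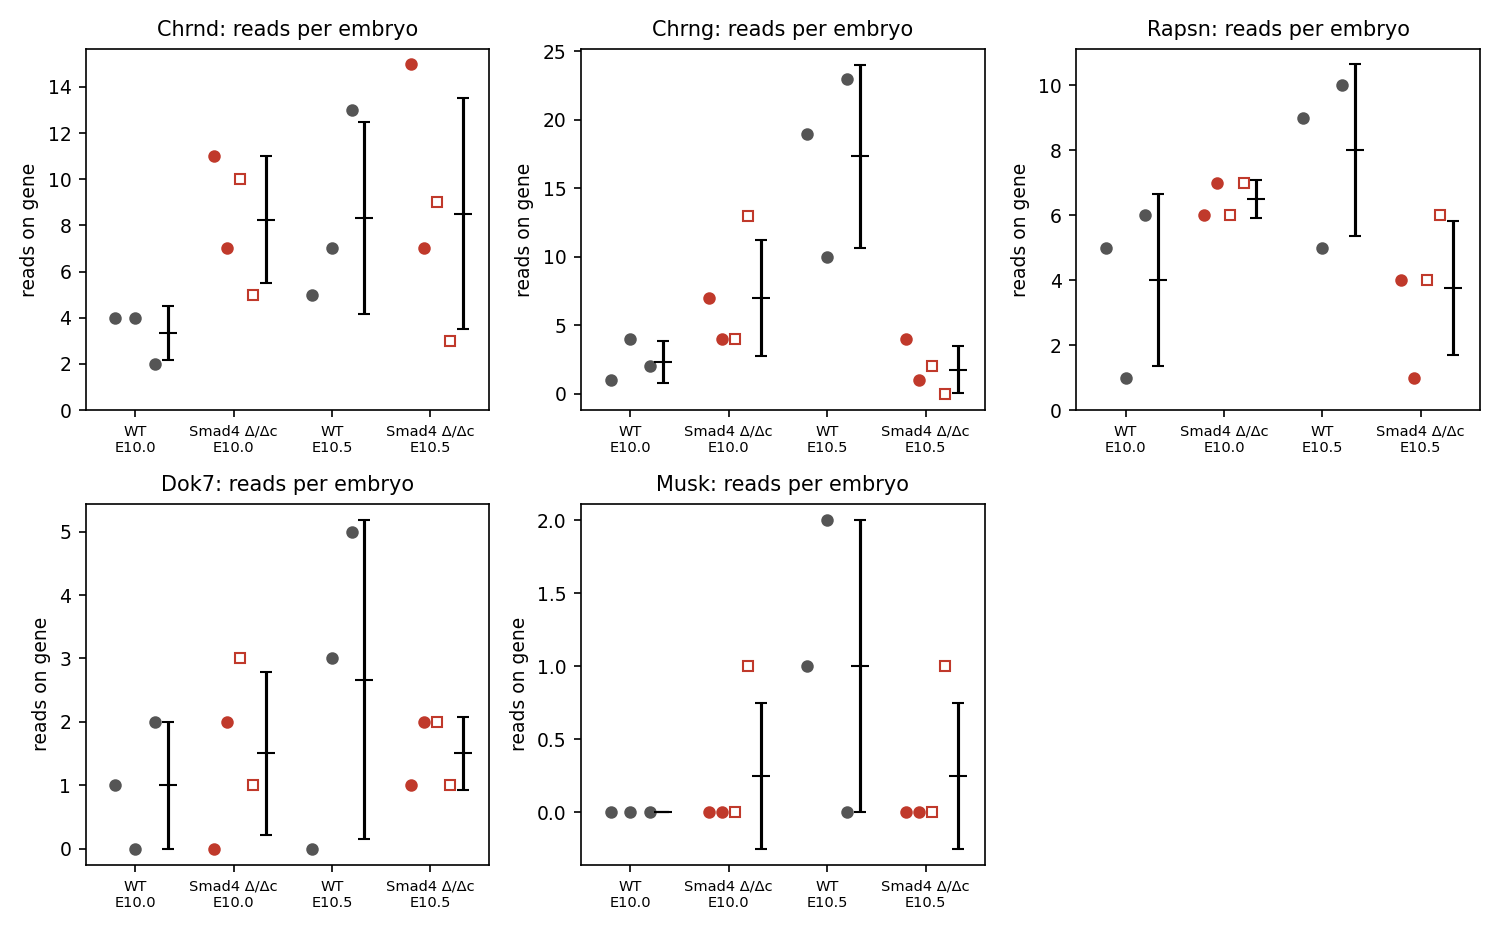
Reads on *Chrnd*, *Chrng*, *Rapsn*, *Dok7* and *Musk* (vertical axes) in each embryo by group (horizontal axes). Grey points are WT, red points are *Smad4* Δ/Δc, open squares are mutant replicates 4 and 5, and black bars are mean ± SD. *Chrng* reaches 10 to 23 reads in WT at E10.5 and 0 to 4 reads in mutants of that stage, and *Musk* stays at 0 to 2 reads.

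Over the 6 genes other than *Chrna1*, the groups of E10.0 did not overlap for 1 gene, *Chrnd*, against 14% of all genes, and those of E10.5 for 1 gene, *Chrng*, against 10.7%. These shares are near those of all genes. Between the stages, 4 of the 7 genes (*Chrna1*, *Chrnb1*, *Chrnd* and *Chrng*) were higher in WT at E10.5 without overlap, against 28.4% of all genes without overlap in either direction, and 1 of 7 (*Chrnb1*) in mutants, against 15.3%.

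In the fit with no filter, 0 of the 6 genes were called between genotypes at E10.0 (4.28% of all genes), and 1 of 6 at E10.5 (2.72%). At E10.0, 3 of the 6 had an unadjusted *P* under 0.05 in edgeR's exact test, all with higher values in mutants, against 13.9% of all genes at such a *P* in either direction and 7.90% higher in mutants. None of the 3 was called. Between the stages, 3 of 7 rose in WT (6.81% of all genes called), and in mutants 1 rose and 1 fell (14.1%). The difference of the genotype effects was called for 1 of 6, *Chrng*, against 0.210% of all genes.

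**Figure D3:**
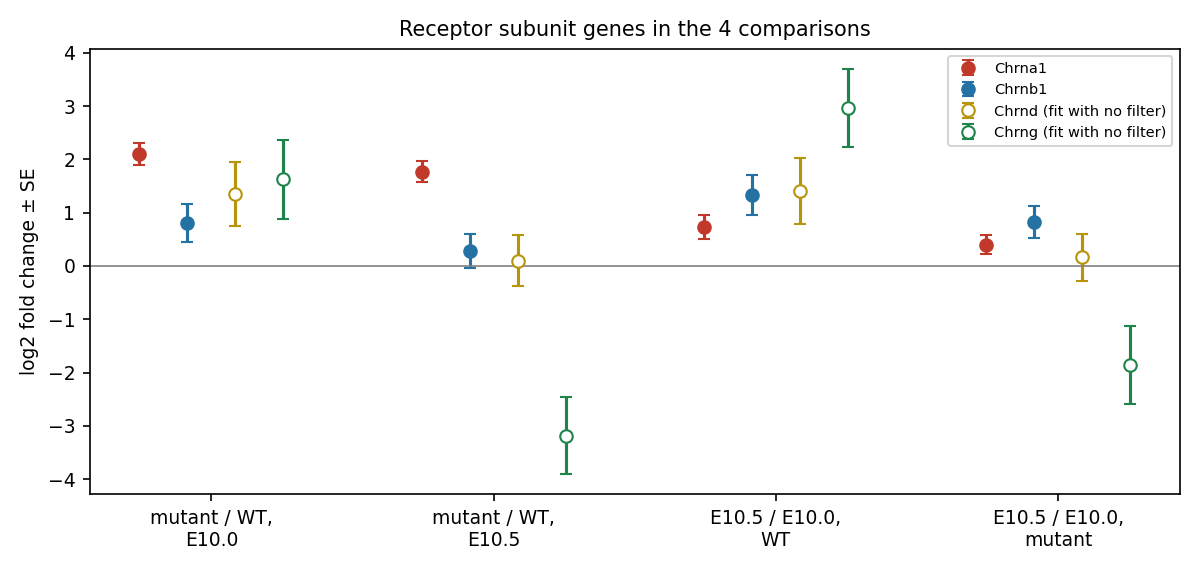
Log2 fold changes with their SE (vertical axis) of the 4 receptor subunit genes in the 4 comparisons (horizontal axis), from the filtered edgeR fit (filled points) or the fit with no filter (open points). *Chrna1* lies at 2.10 and 1.77 between genotypes, and *Chrng* lies at 1.63 at E10.0 and at -3.18 at E10.5.

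The wider pathway was read from lists chosen with earlier results known. Of the 20 genes listed for the agrin pathway and postsynaptic scaffold, 18 passed the filter, against 12393 of the 23284 genes counted. The list leaves out *Musk*, *Rapsn* and *Dok7*, which did not pass, so the count does not show that the whole pathway was present. Agrin (*Agrn*) stood at 149 ± 10.7 CPM and its receptor *Lrp4* at 61.4 ± 6.44 CPM in WT at E10.0. Of these 18 genes, 1 rose in mutants at E10.0 (*Utrn*, utrophin, log2 fold change 0.39, SE 0.141, edgeR adjusted *P* = 0.0945, not called in the quasi-likelihood test), and 1 fell at E10.5 (*Erbb3*, a neuregulin receptor, -0.42, SE 0.129, adjusted *P* = 0.0394). *Lrp4* was at 0.03 (SE 0.106) and -0.22 (SE 0.107) between genotypes, neither called. The median log2 fold change of the list was -0.02 at E10.0 and -0.04 at E10.5, next to -0.017 and -0.010 for all genes tested, of which 6.61% and 3.73% were called.

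Of the 12 other nicotinic subunit genes, 4 passed the filter, and the ε subunit gene *Chrne* gave at most 1 read in any embryo. *Chrnb4*, a neuronal-type β subunit, rose in mutants at E10.0 from 0.944 ± 0.0977 to 1.76 ± 0.525 CPM (log2 fold change 0.89, SE 0.250, edgeR adjusted *P* = 0.0165), and at E10.5 its value was 0.07 (SE 0.269). The 4 mutants of E10.0 (1.16 to 2.40 CPM, against 0.877 to 1.06 in WT) were enough to carry *Chrnb4* over the filter, so the filter itself favoured this difference. *Chrna5* was at 0.62 (SE 0.254, edgeR adjusted *P* = 0.167) and 0.75 (SE 0.294, adjusted *P* = 0.244). *Chrna7*, the homomeric α7 subunit, was at -0.03 (SE 0.190) and -0.26 (SE 0.200). The median of the 4 was 0.30 at E10.0 and 0.06 at E10.5.

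Markers of muscle moved between the groups too. Of the 12 genes of differentiating skeletal muscle, 7 passed the filter. Of these 7, 5 rose in mutants at E10.0 and all fell in mutants at E10.5, against 6.61% and 3.73% of all genes tested called in either direction. All 5 that rose stayed under 1 CPM in every WT embryo of E10.0. Embryos of other groups carried them over the filter, so the filter itself favoured this rise. *Mylpf* and *Ttn* were not called at E10.5 in the quasi-likelihood test. The summed level of the 12 genes was 10.9 to 14.6 CPM in WT at E10.0, 21.8 to 28.5 in mutants at E10.0, 20.7 to 57.6 in WT at E10.5 and 7.49 to 13.8 in mutants at E10.5. Within each stage the genotypes did not overlap. The median log2 fold change of the 7 was 2.39 at E10.0 and -1.73 at E10.5.

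*Myog*, the myogenic regulator that marks the start of differentiation, stood at 0.206 ± 0.0914 CPM in WT and 3.68 ± 1.49 in mutants at E10.0 (log2 fold change 4.14, SE 0.620, edgeR adjusted *P* = 1.43e-06). At E10.5 it stood at 5.10 ± 2.41 in WT and 0.687 ± 0.709 in mutants (-2.85, SE 0.577, adjusted *P* = 0.000157). The cardiac α-actin gene *Actc1*, also used by embryonic skeletal muscle, was at 3.15 (SE 0.516) and -2.79 (SE 0.491), and the embryonic myosin gene *Myh3* at 2.91 (SE 0.520) and -2.18 (SE 0.475), all called in edgeR. Without mutant replicates 4 and 5, the same 5 genes were called at E10.0, and 4 of the 7 (*Actc1*, *Des*, *Myh3* and *Myog*) at E10.5.

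Set beside the summed muscle level, *Chrng* had the same order of group means, with WT at E10.5 highest, then mutants of E10.0, then WT of E10.0, then mutants of E10.5. The first 2 groups overlapped, and so did the last 2, both in *Chrng* and in the summed muscle level. Single markers could differ from that order. *Myog*, *Actc1* and *Myh3* were lowest in WT of E10.0 (means of 0.206, 0.434 and 0.268 CPM), below mutants of E10.5 (0.687, 1.30 and 1.10 CPM). *Des* alone gave 8.13 CPM of the sum in WT of E10.0 and 2.04 CPM in mutants of E10.5. *Chrna1* had another order, with mutants of E10.5 highest and mutants of E10.0 next, and at E10.5 it was 3.42 times as high in mutants as in WT while the 7 muscle genes tested were all lower there. The part of muscle cell number or state in the values of the subunit genes was not tested.

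**Figure D4:**
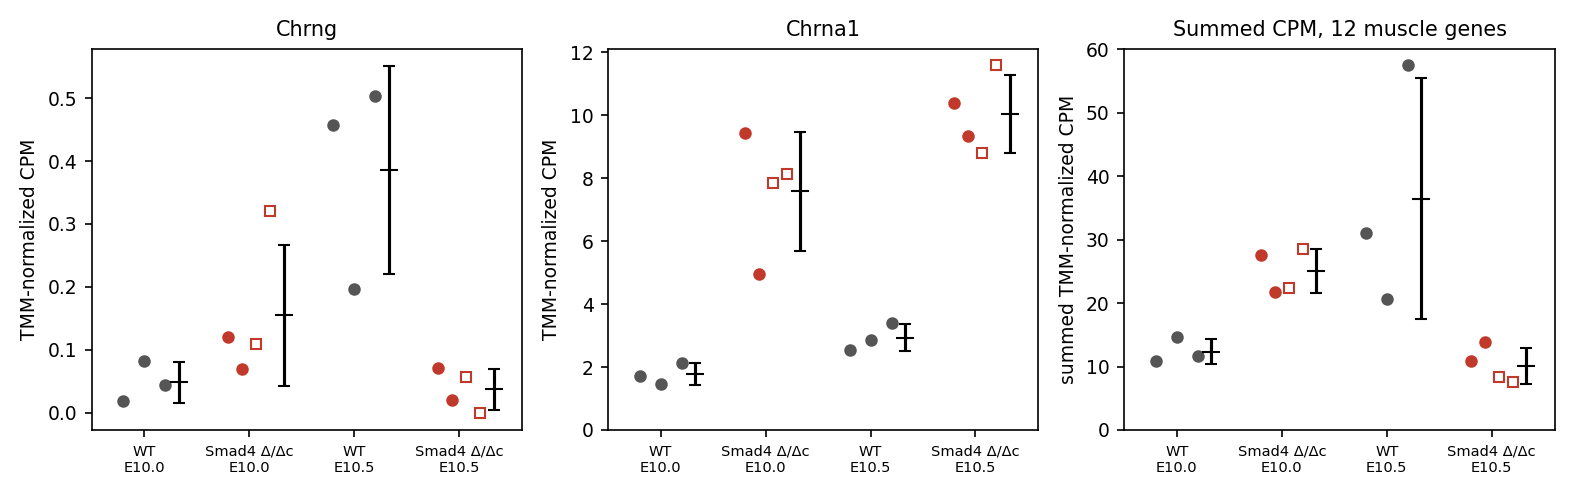
TMM-normalized CPM of *Chrng*, of *Chrna1* and summed over 12 genes of differentiating skeletal muscle (vertical axes) in each embryo by group (horizontal axes). Grey points are WT, red points are *Smad4* Δ/Δc, open squares are mutant replicates 4 and 5, and black bars are mean ± SD. At E10.5 the mutants lie below WT for *Chrng* (0 to 0.0711 against 0.196 to 0.503 CPM) and for the muscle genes (7.49 to 13.8 against 20.7 to 57.6 CPM), and above WT for *Chrna1* (8.80 to 11.6 against 2.55 to 3.39 CPM).

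Of the muscle precursor markers, *Pax3*, which marks migrating precursors, was at log2 fold changes of 0.09 (SE 0.109) at E10.0 and -0.26 (SE 0.110) at E10.5 between genotypes, neither called (edgeR adjusted *P* = 0.741 and 0.297). In mutants *Pax3* fell between the stages (log2 fold change -0.35, SE 0.101, adjusted *P* = 0.00557), and in WT its value was -0.01 (SE 0.116).

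Among 13 transcription regulators that act on muscle and E-box genes, 11 passed the filter. *Id1*, *Id2* and *Id3*, whose products bind E proteins and keep them from E-boxes and which are known BMP targets, fell in mutants at both stages. *Id1* was at -1.24 (SE 0.147) at E10.0 and -1.33 (SE 0.149) at E10.5, *Id3* at -1.24 (SE 0.198) and -1.38 (SE 0.199), and *Id2* at -0.41 (SE 0.104) and -0.64 (SE 0.104), all called in edgeR. In all, 3 of the 11 rose and 4 fell at E10.0, and 1 rose and 6 fell at E10.5, against 6.61% and 3.73% of all genes tested called in either direction. Some that rose at E10.0, such as *Myog*, stayed under the filter level in all WT embryos of that stage, so the filter favoured their rise.

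Other cell types gave the following levels. Of 10 neuronal markers 5 passed the filter, 1 of which, *Isl1*, rose in mutants at E10.0 (log2 fold change 1.32, SE 0.389, edgeR adjusted *P* = 0.0300, not called in the quasi-likelihood test) and was at 0.06 (SE 0.380) at E10.5. The summed neuronal level was 21.2 to 22.4 CPM in WT and 18.9 to 22.8 in mutants at E10.0, and 18.2 to 22.1 and 15.6 to 20.7 at E10.5. Choline acetyltransferase (*Chat*), the defining enzyme of motor neurons that would release acetylcholine, gave 0 to 5 reads per embryo. None of 4 Schwann cell precursor markers passed the filter, and 0 of 4 ectoderm markers were called between genotypes in either edgeR test or DESeq2, with 0 at an unadjusted *P* under 0.05. Mesenchyme markers fell in 4 of 6 cases at E10.0 and in 3 of 6 at E10.5, with *Prrx1* at -0.29 (SE 0.104) and -0.32 (SE 0.104). Beside the counts of these lists, the exact test called 6.61% of all genes tested at E10.0 and 3.73% at E10.5, in either direction. The quasi-likelihood test called 2 of the 6 at each stage, *Prrx2* and *Twist1*, and not *Prrx1*. The part of these cell types in the results was not tested.

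The genes around *Chrna1* were checked for a shared change of the region. Within 500 kb of it, 9 genes were counted and 8 passed the filter. At E10.0, 0 of the 8 were called by edgeR's exact test, its quasi-likelihood test or DESeq2, with 2, 4 and 4 at an unadjusted *P* under 0.05. At E10.5, 1 rose, *Wipf1*, 33.5 kb away (log2 fold change 0.33, adjusted *P* = 0.0155). The nearest neighbour on the other side, *Chn1*, 30.3 kb away, was at 0.21 and 0.24, neither called. Of all genes tested, the exact test called 6.61% at E10.0 and 3.73% at E10.5.

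Likeness to *Chrna1* was measured as Pearson's *r* of log2(CPM + 1) over the 14 embryos, which share their libraries and their 4 groups, and is given as a description. The 5 most alike genes were *Slc8a3*, a sodium-calcium exchanger (*r* = 0.960), *Tcerg1l* (0.945), *Mdm2*, a p53 ubiquitin ligase (0.942), *Smoc1*, a secreted BMP modulator (0.940), and *Mettl14*, an RNA methyltransferase subunit (0.937). *Slc8a3* went from 3.16 CPM in WT to 6.82 in mutants at E10.0 and from 3.77 to 9.18 at E10.5. *Mdm2* and *Mettl14* reached their likeness with small differences, at log2 fold changes of 0.17 and 0.21 at E10.0. *Chrnb1* stood at rank 894 among the other genes of the 12393 tested, with *r* = 0.612 and a Spearman rank correlation of 0.749. Its *r* became 0.428 without the 2 embryos farthest from the median of *Chrna1*, WT replicates 1 and 2 of E10.0. The other receptor subunit genes described here did not pass the filter and were not ranked.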

How the data were processed

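The members and the gene lists were chosen with earlier results of these data known. RNA was measured in 14 forelimb bud samples. The deposited values were raw counts per gene symbol: per the study's methods and the labels, the authors aligned single-end reads of 50 cycles to mm9 with TopHat2 2.0.13 and counted uniquely mapped reads on refGene genes with htseq-count, without regard to strand.

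From these counts, edgeR 4.0.16 gave TMM-normalized CPM, dispersions over all 14 samples (prior.df 10) and exact tests with Benjamini-Hochberg adjustment over 12393 genes that reached 1 CPM in at least 3 samples. The 1041 genes of the X, Y and mitochondrial chromosomes were excluded. A gene was called at an adjusted *P* of 0.1 or less and a fold change of 1.2 or more. SE were taken from the negative binomial dispersions. The interaction used the quasi-likelihood test. Members below the filter had an exact two-sided permutation test. Levels per kb used merged GENCODE exons on mm9, which may differ from the authors' models. Named genes were the members, *Smad4*, at most 3 genes per list by smallest *P* between genotypes, the 5 genes most like *Chrna1* and its neighbours. *Agrn*, *Chrne*, *Chat*, *Des* and *Rn45s* were named after their values were seen. Counts and sums of the muscle precursor list are not reported here. DESeq2 1.42.0 was an alternative. The scripts were tested on simulated data. Replicates are separate embryos, and read intervals cover counting error only.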

Additional observations from a re-analysis of the deposited data

Results flagged for a closer look

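The genotype effect on *Chrng* at E10.5 minus that at E10.0 was -4.81 on the log2 scale in the edgeR fit with no filter (quasi-likelihood adjusted *P* = 0.0718). *Chrng* was lower in 4 of 4 mutants than in all WT embryos at E10.5, and higher than in all WT embryos in 3 of 4 mutants at E10.0.

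*Musk* had 1 sample apart from the rest in both mutant groups, replicate 5 of E10.0 and replicate 5 of E10.5, where the gap to the other embryos divided by the range of the group was 1. In each case the sample held 1 read and the 3 others held 0. A single read against 0 in the others fixes this ratio at 1 whatever the spread, so the limit, which chance passes in about 1 in 20 sets of continuous values, does not apply to these counts, and nothing is read from them.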

How the results depend on the processing

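Between genotypes, no gene other than *Chrna1* was called at E10.0 under any alternative run, and at E10.5 the count moved from 0 to 1 with no filter on low counts (*Chrng*), as did the count for the difference between the stages. Between the stages in WT, 2 of the 7 genes were called, but 1 without mutant replicates 4 and 5 and 1 with only the groups compared in the fit, since *Chrnb1* then failed the filter; leaving out each embryo gave 0 to 2. In mutants the count was 1, but 2 with no filter and 2 in DESeq2, 0 without mutant replicates 4 and 5 and 0 with only the groups compared, and 0 to 2 over the embryos left out. The replicate numbers did not pair the samples: deviations of same-numbered samples correlated at 0.174 and -0.188 at E10.0 and at -0.26 and -0.051 at E10.5. With the replicate block, 1961 genes were called between genotypes at E10.0 against 819, and 280 at E10.5 against 462. The block changed no call of *Chrna1* or *Chrnb1*, and with no filter it ended the calls of *Chrng* between stages in mutants (adjusted *P* = 0.210 in edgeR) and for the difference of effects (0.181). Without mutant replicates 4 and 5, 2018 genes were called at E10.0. With only the groups compared, 1932 were called between the stages in WT against 1256. The difference of effects was called for 23 genes, for 87 in DESeq2, 39 with no filter and 6 without mutant replicates 4 and 5. Over the embryos left out, the counts ran from 254 to 1062 and from 286 to 516 between genotypes, from 484 to 1515 between the stages in WT and from 7 to 34 for the difference. The fall of *Chrng* in mutants between stages was also lost in the quasi-likelihood test with no filter (adjusted *P* = 0.104). With RLE size factors, 512 genes were higher and 336 lower in mutants at E10.0, against 413 and 406. The cause of these shifts was not tested.

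Of 201 alternative values for *Chrna1* and *Chrnb1*, 194 kept direction and side of the threshold. For the untested genotype values of *Chrna1* and their difference, the measure was instead direction and a shift under the largest SD within a group. All 20 of 20 differences of mean CPM on raw reads kept direction and side of an exact permutation *P* of 0.05. Those between stages in WT cannot reach 0.05, so their side was fixed. Direction and side of the threshold also held for 150 of 174 values of *Chrng* and *Chrnd* with no filter. A call of *Chrng* was lost in 18, and 6 values of *Chrnd*, not called in any, changed sign: over the embryos left out it ran from -0.15 to 0.57 (log2) between genotypes at E10.5 and from -0.09 to 0.39 between stages in mutants. The sign of *Dok7* between genotypes at both stages, and of *Dok7* and *Musk* between stages in mutants, also turned with the embryo left out, with no call. Depth limited *Musk* and *Dok7* most.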
